A study of Mus musculus with 2 samples.

Results

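The MHC class II presentation genes examined here were H2-Aa, H2-Ab1, H2-Eb1, H2-DMa, H2-DMb1, Cd74, and Ciita. They were chosen by gene symbol and not by a threshold on their values, but with earlier results of these data known. All 7 were among the 24091 genes of the deposited table. The table holds 2 RNA sequencing libraries, 1 from sham-irradiated C57BL/6 mice and 1 from C57BL/6 mice that received pelvic irradiation, labelled with 7.5 Gy and 5 days in a wording that does not settle whether the dose was given daily or in total. Gonadal fat was taken 2 months after radiation in both groups, and after collagenase digestion the floating cells, labelled as primary adipocytes, were kept in culture for 3 days. Both titles carry the letters PBS, and what was given PBS is not stated. The labels do not state ages, sex, or the number of mice behind each library. Because a single library stands for each condition, no test between the conditions was possible, no p-value was computed, and every difference described below lacks a replicate check.

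MHC class II molecules are pairs of an alpha and a beta chain that carry peptides from engulfed material to the cell surface, where CD4+ T cells read them. The chains are built with the invariant chain, which blocks the peptide groove and guides them to the endosome. Proteases there cut the invariant chain down, and the H2-DM dimer removes the last piece and helps a peptide to load. The class II transactivator binds the factors that sit on the promoters of these genes and switches them on. Dendritic cells, macrophages, and B cells carry most class II in tissue, and other cells, such as fibroblasts, can be induced to make it by interferon gamma.

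In these libraries class II RNA was scarce, and every one of the 7 genes had a higher value in the irradiated library, by small amounts. Of all genes with an FPKM of 1 or more in either library, 53.5% were also higher. Among those with 162 to 582 fragments over both libraries, 60.5% were. For Ciita, with 4 and 6 fragments, no direction can be read. The counting intervals of H2-Aa, H2-Ab1, and H2-Eb1, explained below, include no difference. The 2 genes of the H2-DM peptide loader had the largest differences on the log2(FPKM + 0.1) scale, 0.66 for H2-DMb1 and 0.61 for H2-DMa. For H2-DMa, with its low level, the size of the difference depends on the constant added. On the log2(FPKM + 1) scale it showed 0.29, below H2-Ab1 at 0.31, while H2-DMb1 stayed highest at 0.46. The log2 ratio of fragments per library total, without a constant, was 0.699 for H2-DMa, 0.695 for H2-DMb1, and 0.456 for H2-Ab1. FPKM counts the fragments on a gene relative to its length in kb and to a library of 1000000 fragments, and 0.1 was added to it before the logarithm was taken. The invariant chain gene Cd74 and the beta chain gene H2-Ab1 followed with 0.29 and 0.44, while H2-Eb1 and H2-Aa differed by 0.19 and 0.07. Ciita, the gene of the transactivator, lay near the floor of detection in both libraries. In a bulk sample such as this, more cells of a type and more RNA per cell cannot be told apart.

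The depth recovered from the values was 30576000 fragments for the sham library and 34990000 for the irradiated library. An FPKM of 1 or more in either library was reached by 11253 genes, which served as the background set. Their median difference was 0.02, and 53.5% of them had a higher value in the irradiated library. The counting interval explained below lay above 0 for 23.8% of them and below 0 for 17.4%. The material did not look like pure mature adipocytes, since the adipocyte markers were mixed. Of 8 adipocyte genes looked up, 2 reached an FPKM of 1. Fabp4 had 96.9 in both libraries, and Pparg had 4.59 in the sham library and 4.69 in the irradiated library. Adipoq, the adipocyte hormone gene, had an FPKM of 0.133 and 0.232, and Plin1, which coats the lipid droplet, had 0.254 and 0.478. The fibroblast collagen gene Col1a1 had 1937 and 1428.

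In the deposited table, whose build per the labels is mm10, 5 of the 7 genes lie on chromosome 17. H2-DMa spans bases 34122832 to 34139101 on the plus strand, and H2-DMb1 spans 34145416 to 34160229 on the plus strand. H2-Ab1 spans 34263227 to 34269418 on the plus strand, and H2-Aa spans 34282751 to 34287771 on the minus strand. H2-Eb1 is given a span of 34264832 to 34316674 on the plus strand. The gene of the transactivator is on chromosome 16, from 10480072 to 10527640 on the plus strand.

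The control region shared by class II genes is a short stretch in front of the start, with an X box bound by RFX and CREB proteins and a Y box bound by NF-Y, whose core is CCAAT. The RefSeq promoter table of GRCm38.p6 held 4 of the 7 genes, H2-Aa, H2-Eb1, H2-DMa, and H2-DMb1, and not H2-Ab1, Cd74, or Ciita. The windows below run from 130 to 31 bases before the RefSeq start, 5′ to 3′ on the strand of the gene, and are shown because they let the shared layout of the chain genes and of the loader gene be read side by side. Capitals mark CCAAT or its reverse complement, ATTGG, and TGACG or its reverse complement, CGTCA.
H2-Aa, chr17:34287854-34287953, minus strand: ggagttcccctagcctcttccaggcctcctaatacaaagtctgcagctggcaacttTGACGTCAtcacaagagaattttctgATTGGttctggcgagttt
H2-Eb1, chr17:34305737-34305836, plus strand: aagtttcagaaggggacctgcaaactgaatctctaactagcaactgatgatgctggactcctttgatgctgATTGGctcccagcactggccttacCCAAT
H2-DMb1, chr17:34153061-34153160, plus strand: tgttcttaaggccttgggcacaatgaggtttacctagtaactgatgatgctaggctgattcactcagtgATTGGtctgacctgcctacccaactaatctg
H2-DMb2, the close copy of H2-DMb1, chr17:34145119-34145218, plus strand: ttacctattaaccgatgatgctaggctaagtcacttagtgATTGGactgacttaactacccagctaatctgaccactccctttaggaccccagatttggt

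The ATTGG core began 48 bases before the start in H2-Aa, 59 in H2-Eb1, 61 in H2-DMb1, and 90 in H2-DMb2. H2-Eb1 also held CCAAT in the forward direction at 35 bases. Within the 250 bases before the start, 33.8% of the 32851 promoters of the table held CCAAT on either strand, so this core alone is common. In all 4 printed windows the core was part of the longer string TGATTGG, which was chosen after these sequences had been seen and which 7.23% of all promoters held on either strand. TGACG, on either strand in 17.8% of all promoters, was present among these genes in H2-Aa, where the copies on the opposite strands overlap, 74 and 71 bases before the start. GENCODE starts the coding transcript of H2-DMb1 at 34153072 and RefSeq at 34153191, so most of the printed window of H2-DMb1, its core included, lies inside the GENCODE transcript. At the 2 RefSeq starts of H2-DMa, the sole match was ATTGG at 198 bases before the second start. In GENCODE M21 the protein-coding transcripts of H2-DMa begin at positions from 34122832 to 34135654, and the last of these starts was not searched. A match to these letters is a description of the sequence and not evidence of binding.

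The alpha and beta chains came first in the comparison, since they are the presenting molecule itself. H2-Aa and H2-Ab1 encode the alpha and beta chains of I-A, the class II molecule of C57BL/6 mice. H2-Aa had an FPKM of 1.98 in the sham library and 2.09 in the irradiated library, on 82 and 99 fragments. The log2 ratio of its fragments per library total was 0.08, with an exact 95% counting interval from -0.36 to 0.52, so no difference was detectable at this depth. H2-Ab1 had an FPKM of 1.78 and 2.45, on 65 and 102 fragments. Its ratio was 1.37-fold, with an interval from 0.99 to 1.90, which just includes no difference. The partners of the dimer were at similar levels per length, with an H2-Ab1 to H2-Aa ratio of 0.897 (interval 0.638 to 1.26) in the sham library and 1.17 (0.875 to 1.55) in the irradiated library. The exact intervals here and below cover counting error only, since copied fragments are not independent molecules and the variation between mice and cultures is not in them.

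H2-Eb1 encodes the beta chain of I-E, a second class II molecule that C57BL/6 mice do not assemble because the E alpha gene of the strain is defective. Its RNA was nevertheless present, with an FPKM of 1.27 in the sham library and 1.46 in the irradiated library, on 70 and 92 fragments. The counting interval of the log2 ratio ran from -0.26 to 0.67. H2-Ea-ps, the E alpha pseudogene entry, had no fragments in either library, and 3 fragments on it would correspond to an FPKM of 0.126 and 0.110. Summed over H2-Aa, H2-Ab1, and H2-Eb1, the fragments per 1000000 were 7.10 in the sham library and 8.37 in the irradiated library, a ratio of 1.18-fold with an interval from 0.99 to 1.41. The chain genes together were therefore not separated between the libraries beyond counting error.

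The deposited span of H2-Eb1 is 51.8 kb long, against 10.8 kb in GENCODE, where the gene starts at 34305867. The deposited span begins inside H2-Ab1, which lies on the same strand, and encloses H2-Aa, which lies on the opposite strand. The deposited length of 1.806 kb is near the 1.94 kb of exon sequence in GENCODE. In the longest coding GENCODE transcripts of H2-Aa, H2-Ab1, and H2-Eb1, 0 windows of 50 bases occurred exactly in a transcript of another gene. The library preparation was stranded per the labels, but whether the counting used strand is not stated.

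H2-DMa and H2-DMb1 encode the alpha and beta chains of H2-DM, the loader that exchanges the last piece of invariant chain for a peptide. H2-DMb1 had an FPKM of 1.50 in the sham library and 2.43 in the irradiated library, on 61 and 113 fragments. Its fragments per library total were 1.62-fold higher in the irradiated library, with a counting interval from 1.18 to 2.25. H2-DMa had 0.555 and 0.900, on 28 and 52 fragments, and also a ratio of 1.62-fold, with an interval from 1.01 to 2.67. Both intervals lay above no difference, that of H2-DMa only just. Neither library of H2-DMa reached an FPKM of 1, so the gene is not in the background set.

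The pair kept its proportions, with 2.70 times as much H2-DMb1 as H2-DMa per length in each library (intervals 1.70 to 4.39 and 1.92 to 3.82). Summed over both chains, H2-DM had 2.91 fragments per 1000000 in the sham library and 4.72 in the irradiated library, a ratio of 1.62-fold with an interval from 1.24 to 2.12. Of the fragments on H2-DM and the class II chains together, H2-DM took 29.1% (exact 95% binomial interval 24.1 to 34.5) in the sham library and 36.0% (31.6 to 40.6) in the irradiated library. Set against each other directly, the ratio of the loader was 1.37 times that of the chains, with an exact conditional 95% interval from 0.994 to 1.90, which just includes no difference.

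H2-DMb1 has a close copy, H2-DMb2, and the table gives both the same span. GENCODE places H2-DMb2 from 34143307 to 34151555 and H2-DMb1 from 34153072 to 34160230, side by side. Of all windows of 100 bases in the longest coding transcript of H2-DMb1, 13.7% occurred exactly in transcripts of another gene, most often H2-DMb2, and of windows of 50 bases 27.2% did. The value of H2-DMb1 is therefore uncertain to the extent that the counting split or dropped such fragments. H2-DMb2 itself was listed with 4 fragments in the sham library and 3 in the irradiated library against 61 and 113 for H2-DMb1.

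Cd74, on chromosome 18 from 60803849 to 60812652, encodes the invariant chain, which is also a surface receptor for the cytokine MIF. It was the most abundant of the 7 genes in both libraries, with an FPKM of 5.64 in the sham library and 6.91 in the irradiated library, on 242 and 340 fragments. The ratio was 1.23-fold, with a counting interval from 1.04 to 1.45. Even so, its sham value exceeded those of only 38.4% of the genes in the background set. Per length there was 2.84 times as much Cd74 as H2-Aa in the sham library (interval 2.20 to 3.69) and 3.30 times as much in the irradiated library (2.63 to 4.17). Cd74 took 43.8% of the fragments on the 7 genes in the sham library (interval 39.7 to 48.1) and 42.3% in the irradiated library (38.8 to 45.8), which is an overlapping share.

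Ciita encodes the class II transactivator, which does not bind DNA itself and sets how strongly the promoters above are used. It had 4 fragments in the sham library and 6 in the irradiated library over a length of 8.016 kb, an FPKM of 0.0166 and 0.0216. For comparison, 3 fragments on this gene correspond to 0.0122 and 0.0107. The counting interval of the log2 ratio ran from -1.69 to 2.66, so a ratio anywhere from 0.31-fold to 6.32-fold is compatible with these counts. The deposited log2 values, -3.10 and -3.04, differ by 0.06 because the added 0.1 is several times larger than the FPKM itself.

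**Figure D1:**
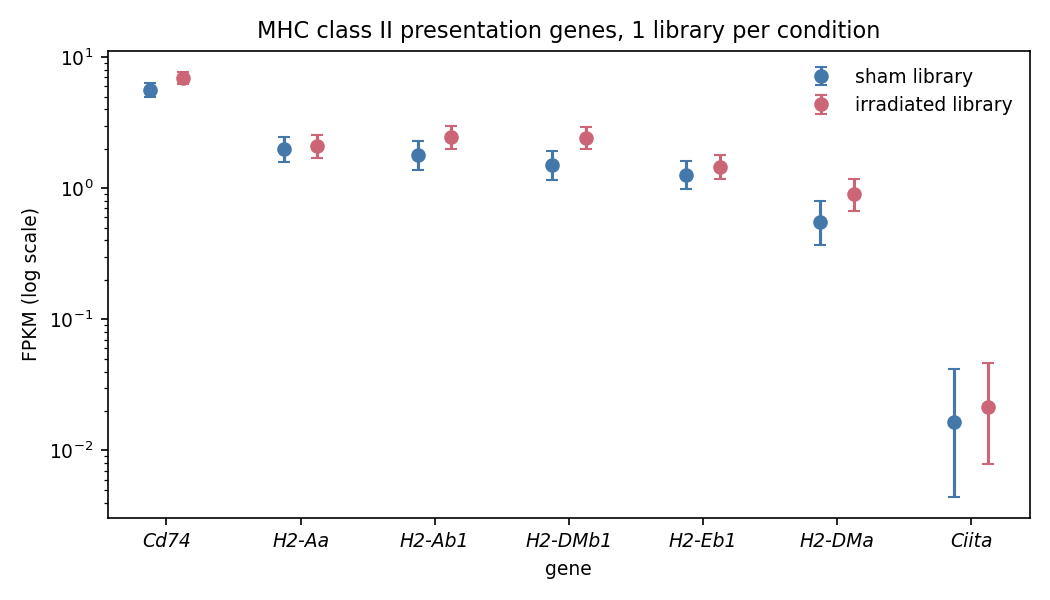
FPKM on a log scale of the 7 class II genes in the sham library and the irradiated library, 1 library each, with exact 95% Poisson counting intervals as bars. Cd74 lies highest, at 5.64 and 6.91, and Ciita lowest, at 0.0166 and 0.0216, with the chain and loader genes between 0.555 and 2.45.

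In order of level per length in the sham library, the genes ran Cd74, H2-Aa, H2-Ab1, H2-DMb1, H2-Eb1, H2-DMa, and Ciita. The Poisson intervals of Cd74, 4.94 to 6.38, stood clear of the next gene, H2-Aa, at 1.58 to 2.46. The ratio per length did not separate H2-Ab1 from H2-Aa, H2-DMb1 from H2-Ab1 (0.841, interval 0.583 to 1.21), or H2-Eb1 from H2-DMb1 (0.846, 0.592 to 1.21) beyond counting error. H2-Eb1 did lie below H2-Aa, at a ratio of 0.639 (0.457 to 0.889) in the sham library and 0.695 (0.518 to 0.933) in the irradiated library. H2-DMa lay below H2-Eb1, at a ratio of 0.437 (0.272 to 0.687). In the irradiated library H2-Ab1 (2.45) and H2-DMb1 (2.43) stood next to Cd74, ahead of H2-Aa (2.09), and these ratios were not separated from 1, while H2-Eb1 lay below H2-DMb1 at 0.600 (0.451 to 0.798).

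Over all 7 genes, 552 fragments were found in the sham library and 804 in the irradiated library, or 18.1 and 23.0 per 1000000. The ratio was 1.27-fold, with an interval from 1.14 to 1.42. Cd74 dominates this sum, and over the chain and loader genes alone the ratio was 1.31-fold, with an interval from 1.13 to 1.52. Of the 7 genes, 5 belong to the background set, namely H2-Aa, H2-Ab1, H2-Eb1, H2-DMb1, and Cd74, and each of the 5 had an FPKM above 1 in both libraries. Their differences ran from 0.07 to 0.66, with a median of 0.29, beside the median of 0.02 over the background set.

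Past a difference of 0.5 lay 1 of these 5, H2-DMb1, where 4.31% of the background set did. That share was not taken within a range of fragments, so it is not matched to the depth of the 5 genes. The counting interval lay above 0 for 2 of the 5, H2-DMb1 and Cd74, where it did so for 23.8% of the background set. Since this count depends on how many fragments a gene has, it was also taken over the 1763 genes with 162 to 582 fragments over both libraries, the range of the 5 genes, after the data had been seen. There it was 20.9%, with 60.5% of the genes higher in the irradiated library and a median difference of 0.07. Shares given for other lists below were taken in the same way, over all genes of the background set within the range of fragments of that list. Individual class II genes with such intervals were thus not rare events among genes of their depth.

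**Figure D2:**
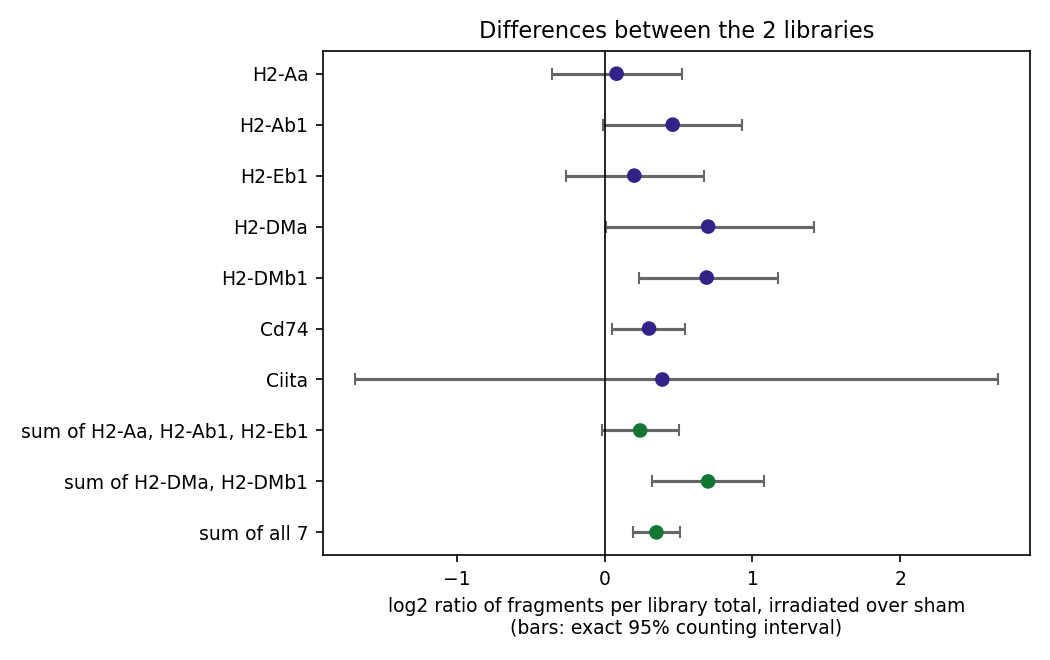
Log2 ratio of fragments per library total, irradiated over sham, for each class II gene and for 3 sums, with exact 95% counting intervals as bars and a line at no difference. All points lie above 0, while the bars of H2-Aa, H2-Ab1, H2-Eb1, Ciita, and the sum of the chain genes reach below it.

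The other class II genes were close to silent. H2-Oa and H2-Ob encode the chains of H2-DO, which restrains H2-DM and is best known from B cells. H2-Oa had 4 fragments in the sham library and 0 in the irradiated library, and H2-Ob had 4 and 3. H2-Eb2, a further E beta gene, had 2 and 3 fragments. Of the 6 further class II symbols looked up, 5 were in the table, all under an FPKM of 1, and their summed FPKM was 0.278 and 0.128, against 12.7 and 16.3 for the 7 genes. No direction can be read from such counts, and H2-Ea is named here without a value.

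The class II chain and loader genes share their stretch of chromosome 17 with genes of other functions. From H2-DMa to H2-Eb1 the span is 194 kb, and with 50000 bases on either side it held 18 listed genes. Of these, 10 reached an FPKM of 1, and the 6 that are not among the class II genes had differences from 0.01 to 0.28, with a median of 0.12. Tap1 and Tap2, which pump peptides for class I, had an FPKM of 3.41 and 6.67 in the sham library and 4.16 and 7.63 in the irradiated library. Psmb8 and Psmb9, subunits of the immunoproteasome, had 13.9 and 2.48 against 14.8 and 2.58. Brd2, a chromatin reader that neighbours H2-DMa, was at 33.3 and 33.5. Notch4, a receptor of endothelial cells, was at 2.93 and 3.26, and the table gives it a span that encloses H2-Ab1, H2-Eb1, and H2-Aa. The counting interval lay above 0 for 3 of the 6 neighbours, Tap1, Tap2, and Notch4, where 23.6% of genes within their range of fragments had such an interval. That of Notch4 only just did, from 0.00 to 0.31 on the log2 scale. Notch4 is counted in the region by its deposited span, from 34226175 to 34588543, which was not checked against GENCODE. Among the genes with a higher value in the irradiated library, H2-DMb1 and H2-DMa thus had the largest differences of the region. Brd2, the next gene to H2-DMa, differed by 0.01.

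**Figure D3:**
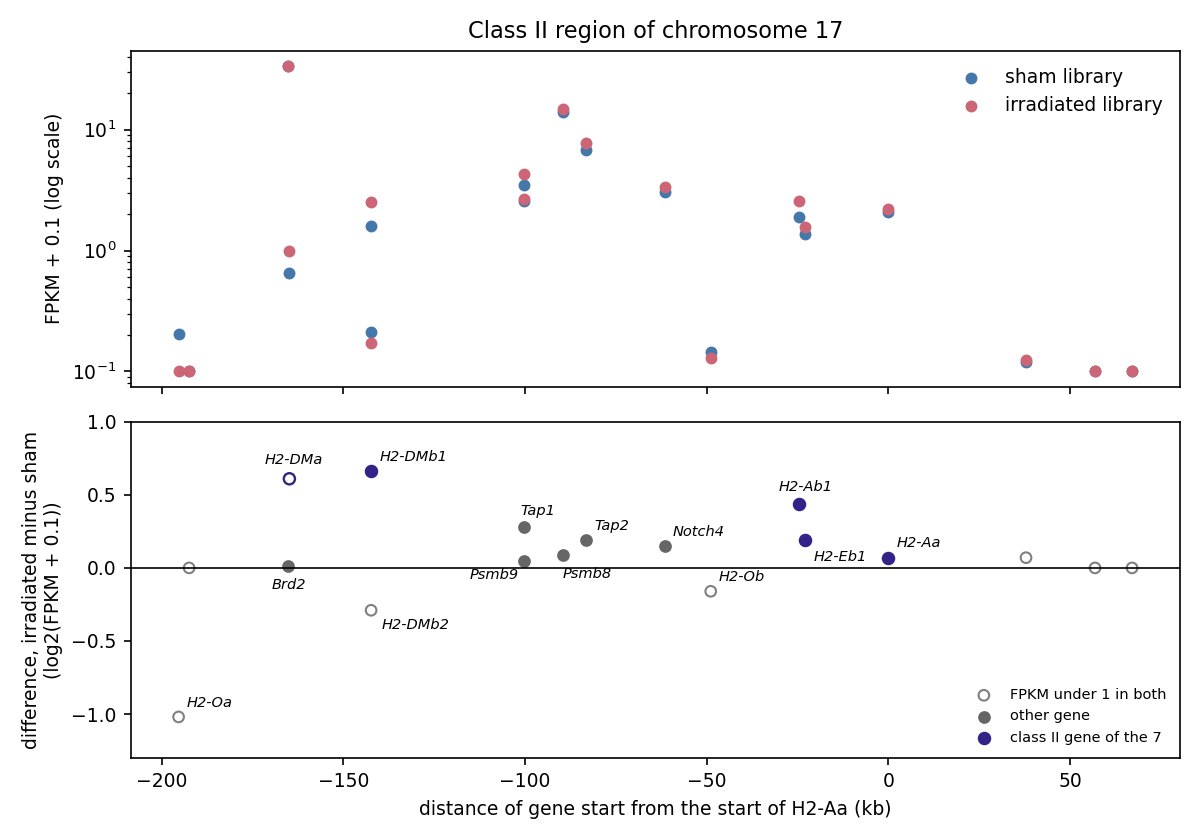
FPKM plus 0.1 on a log scale (top) and the difference between the libraries on the log2(FPKM + 0.1) scale (bottom) for 18 genes, by the distance in kb of each gene start from that of H2-Aa. Filled points belong to the background set, and H2-DMb1 and H2-DMa lie highest, at 0.66 and 0.61.

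Among the factors of the pathway upstream of the promoters, most genes had slightly lower values in the irradiated library. The promoter list held Rfx5, Rfxap, Rfxank, Nfya, Nfyb, Nfyc, and Creb1, the proteins of which assemble on the X and Y boxes. All 7 reached an FPKM of 1, and their median difference was -0.10, with 1 counting interval above 0 and 3 below. Within their range of fragments, 23.1% of genes had an interval above 0 and 12.3% below. Rfxap, a subunit of RFX, had an FPKM of 3.84 in the sham library and 3.13 in the irradiated library, Nfyc, a subunit of NF-Y, had 16.3 and 13.7, and Creb1, with the most fragments, had 7.79 and 7.26. The list is thus expressed in both libraries at levels above those of the chain genes or near them.

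Interferon gamma, the classical inducer of Ciita, was not detected, as Ifng had 0 fragments in both libraries. Its receptor and signalling genes Ifngr1, Ifngr2, Jak1, Jak2, Irf1, and Socs1 all reached an FPKM of 1. Over these 6 genes the median difference was -0.09, with 2 counting intervals above 0 and 3 below, where within their range of fragments 24.1% lay above and 17.4% below. The largest differences were those of Socs1, a feedback inhibitor, at -0.55 on an FPKM of 2.71 and 1.82, and of Jak2, a kinase of the receptor, at -0.53 on 78.1 and 54.1. Jak1, the partner kinase and the gene of the list with the most fragments, had 116 and 108.

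Genes of the endosomal proteases that prepare peptides and trim the invariant chain were far more abundant and all higher in the irradiated library. Ctss, which makes the final cuts in the invariant chain of many presenting cells, had an FPKM of 133 in the sham library and 211 in the irradiated library, a difference of 0.66. Ctsd had 385 and 560, Ctsb had 211 and 290, and Lgmn, an asparagine-specific protease, had 76.0 and 108. Ctsl, which does the work of Ctss in thymic epithelium, had 239 and 296, and Ifi30, a reductase that opens disulfide bonds of antigens, had 32.1 and 39.8. The median difference of these 6 genes was 0.48, and all 6 counting intervals lay above 0, where 26.6% did among the 4966 genes within their range of fragments and 26.8% lay below. The lysosomal proteases serve general protein breakdown as well as presentation.

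The ligases March1 and March8 mark class II for removal from the cell surface. March1, the form of dendritic cells and B cells, had an FPKM of 1.13 in the sham library and 1.49 in the irradiated library, with a counting interval of the log2 ratio from 0.11 to 0.69. March8, the widely expressed form, had 15.1 and 13.9, with an interval from -0.21 to -0.03. The partners of the invariant chain at the surface also differed among themselves. Mif, its ligand, had 227 and 204, its co-receptor Cd44 had 64.3 and 80.3, the chemokine receptor Cxcr4 had 4.69 and 6.40, and Cxcr2 had no fragments in either library.

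Class I presentation, the counterpart pathway for peptides made inside the cell, ran at far higher levels than class II. B2m, the light chain of class I, had an FPKM of 729 in the sham library and 849 in the irradiated library, and H2-D1, a heavy chain, had 131 and 171. Nlrc5, the class I counterpart of Ciita, had 0.653 and 0.846, a difference of 0.33 with a counting interval above 0 on 138 and 205 fragments. Of 10 class I genes, 9 reached an FPKM of 1, with differences from 0.04 to 0.39, a median of 0.19, and 6 counting intervals above 0, where 24.0% of genes within their range of fragments had such an interval. The range of the class II genes, from 0.07 to 0.66, overlaps that of class I, and a difference between the lists was not tested.

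The co-stimulators that accompany class II on presenting cells spread widely. Cd80 had an FPKM of 2.33 in the sham library and 8.24 in the irradiated library, a difference of 1.78, and Cd274, which encodes the inhibitory ligand PD-L1, had 5.68 and 9.28. Cd86 had 0.942 and 0.859, Cd40 had 1.38 and 1.36, Icosl had 0.696 and 0.414, and Pdcd1lg2 had 0.159 and 0.161. The 6 genes therefore included the 1 with the largest difference of the pathway and several with differences near 0.

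**Figure D4:**
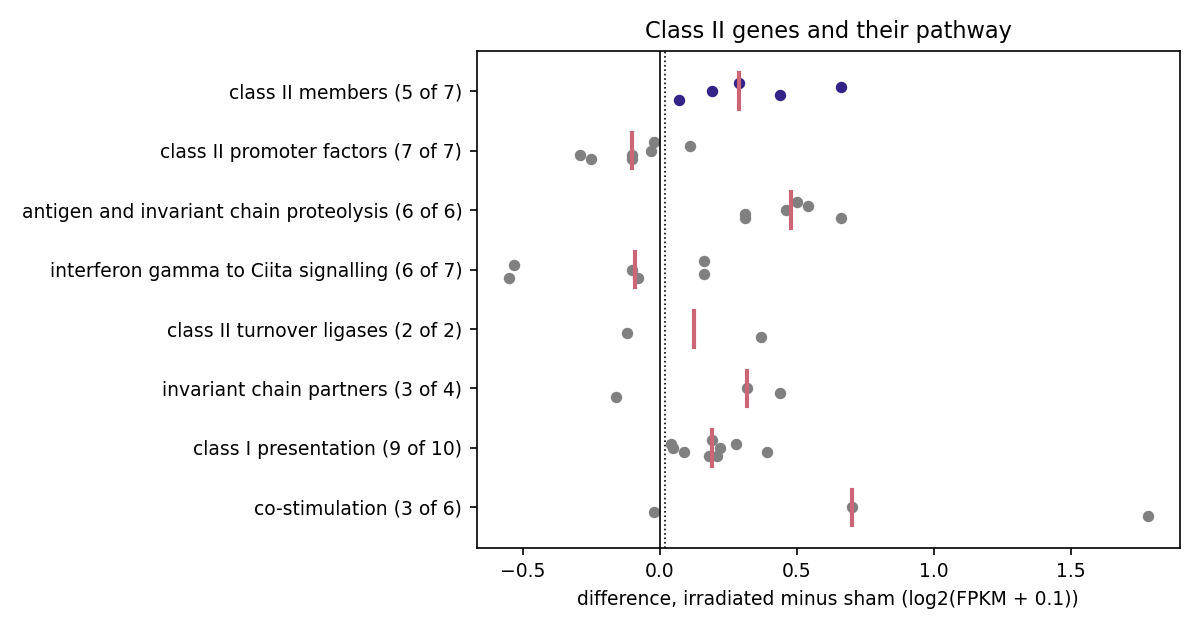
Difference between the libraries on the log2(FPKM + 0.1) scale for each gene of the background set, by list, with the number of such genes of those listed in brackets. Red bars mark list medians, 0.29 for the class II genes, 0.48 for the proteases, and -0.10 for the promoter factors, and the dotted line marks 0.02, the median of the background set.

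Markers of the cells that usually carry class II were unevenly present. The gene of the leukocyte surface protein CD45, Ptprc, had an FPKM of 5.33 in the sham library and 6.49 in the irradiated library, a difference of 0.28. All 13 macrophage genes reached an FPKM of 1, from 1.39 to 443 in the sham library and from 1.26 to 410 in the irradiated library, and 8 had a counting interval above 0 and 1 below, where within their range of fragments 23.7% of genes lay above and 16.8% below. Their summed FPKM was 630 and 679 and their median difference 0.38. Of the 13, 10 were higher and 3 lower in the irradiated library. The complement genes C1qa and C1qc showed 0.80 each, Mrc1 showed 0.53, Csf1r 0.38, and Adgre1, which encodes F4/80, -0.02. Cd14 showed 0.13, Fcgr1 0.05, and Aif1 -0.14. Lyz2, with the most fragments of the list and the interval below 0, had an FPKM of 443 and 410, a difference of -0.11. The differences of the class II genes lie within the range of the macrophage genes, -0.14 to 0.80, and the part of macrophages in them was not tested.

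Dendritic cell markers were mixed. Of 10 dendritic cell genes, 3 reached an FPKM of 1, and the summed FPKM of the list was 5.99 and 6.21. Itgax, shared with macrophages, was at 2.36 and 2.35. Irf8, also shared with macrophages, was at 1.07 and 1.59, and Ccr7 was at 1.48 and 1.15. The more specific markers were at or near 0, as Cd209a had no fragments in either library, while Xcr1, Clec9a, and Siglech had 0 in the sham library and 1 each in the irradiated library. Zbtb46, a transcription factor of classical dendritic cells, had 0.808 and 0.866.

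B cell genes all lay under an FPKM of 1, with a summed FPKM of 1.52 in the sham library and 0.695 in the irradiated library, opposite in direction to the class II genes. Cd79a, a chain of the B cell receptor complex, had 29 and 8 fragments, and Cd79b had 18 and 7, both with counting intervals below 0. Pax5 had 0 and 2 fragments. The summed FPKM of 6 T cell genes was 2.44 and 1.39. Cd3g, a chain of the T cell receptor complex and the 1 gene of the list in the background set, had an FPKM of 1.12 and 0.617, and Cd4, the co-receptor for class II, had 18 and 12 fragments. The part of B and T cells in the class II values was not tested.

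Markers of cells that can be induced to make class II also differed. Summed FPKM of 8 fibroblast and progenitor genes was 3571 in the sham library and 2859 in the irradiated library. Most of that difference came from the collagen genes Col1a1 (1937 and 1428) and Col3a1 (873 and 694). Of the 8 genes, 6 were lower and 2 higher, and Dcn had 549 and 552. There were 5 counting intervals below 0 and 1 above, where within their range of fragments 18.5% of genes lay below and 24.3% above. The 1 above was that of Dpp4, at an FPKM of 0.886 and 1.24. Dpp4 entered the background set through the irradiated library alone, so it could only count as higher. Genes of mesothelial cells, which line the fat pad, had a summed FPKM of 32.9 and 45.3. Of their 6 counting intervals, 5 lay above 0 and 1 below, against shares of 22.9% and 11.7%. Of the 5, Msln, Upk3b, and Krt19 entered the background set through the irradiated library alone. Their FPKM in the sham library was 0.520, 0.597, and 0.814, so they could only count as higher. Msln had 34 and 202 fragments. Wt1, the gene of the list with the most fragments, went the other way, with an FPKM of 20.4 and 18.7. The counting interval of its log2 ratio ran from -0.22 to -0.04. Endothelial genes had 38.0 and 41.5, with 3 of 5 intervals above 0 against 23.9%. The 8 adipocyte genes had 103 and 104, nearly all of it Fabp4, at 96.9 in both. Which of these cells gave the class II fragments is not shown by the files, and their part in the differences was not tested.

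**Figure D5:**
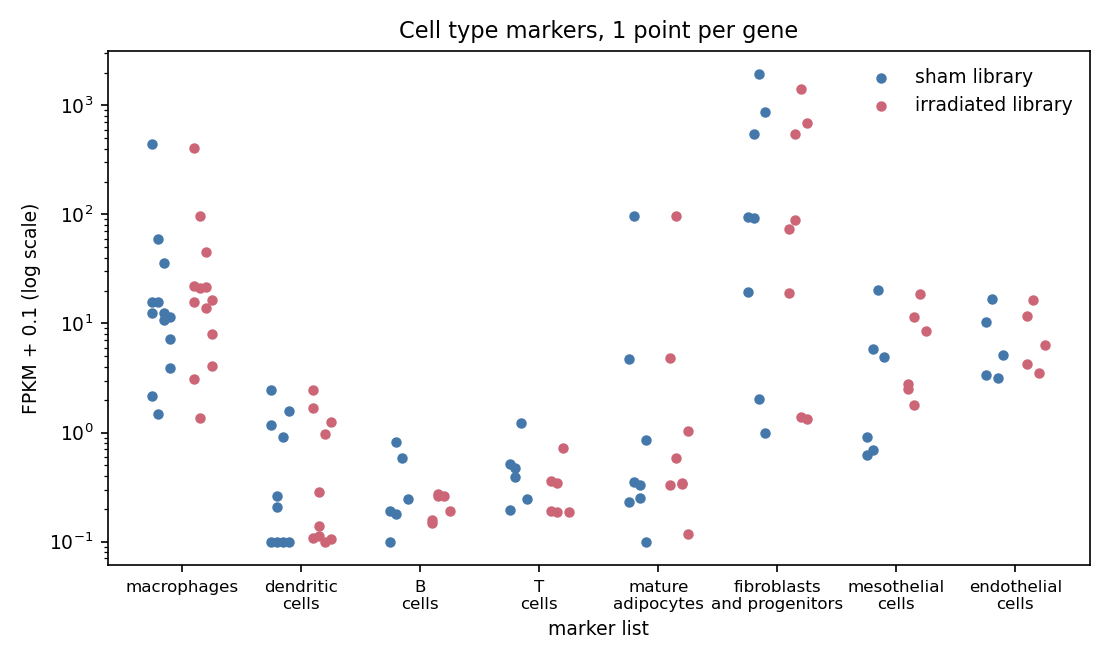
FPKM plus 0.1 on a log scale of each marker gene in the sham library and the irradiated library, by cell type, 1 point per gene. Macrophage genes reach 443 and 410, B cell genes stay at or under 0.718, and fibroblast genes reach 1937 and 1428.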

How the data were processed

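RNA sequencing of polyadenylated RNA from 2 libraries was analysed, assigned to sham and irradiated by their labels. The table that the authors deposited gives log2(FPKM + 0.1) to 2 decimals beside each gene's length in kb, and the submitters' processing notes name mm10. The aligner and the counting tool were not given in the sources used here. The paper given with the series does not describe these libraries. No other per-sample column was present.

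FPKM was recovered as 2 to the deposited value minus 0.1. Library totals were found as those that brought FPKM times length closest to whole fragments, and all 2570 and 2519 genes with few fragments used lay within 0.12 of a whole number. The routines were tested on simulated data. Differences are irradiated minus sham on the deposited scale. Intervals are exact 95% Clopper-Pearson intervals for ratios and shares and exact Poisson intervals for levels. The background set required an FPKM of 1 or more in either library. Rounding of the deposited values is not in the intervals. Shares within a list's range of fragments were added after the data had been seen. A count of 0 was read as allowing up to 3 fragments.

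The 7 genes, the lists, and the thresholds were chosen with earlier results of these data known. Named were the 7 genes, every gene of lists of up to 6, in longer pathway lists the gene with the most fragments and the 2 with the largest differences, and region genes at an FPKM of at least 1. The interferon gamma list is given without 1 further gene, which is not reported here and is in none of its values. Ifng and the markers with values were named after their values were seen. Promoters came from RefSeq (GRCm38.p6) and transcripts from GENCODE M21. The software was SciPy 1.17.1, matplotlib 3.10.9, pandas 2.3.3, and numpy 2.4.6 under Python 3.11.15. Tried as alternatives were another constant, other filters and thresholds, centring, scaling, and a wider interval.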

Additional observations from a re-analysis of the deposited data

How the results depend on the processing

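No paired analysis was possible because a single library stood for each condition, and for the same reason no library could be left out. The difference of each of the 7 genes stayed above 0 and inside its counting interval with log2(FPKM + 1), centring on the median difference (a shift of -0.02), scaling that leaves out the 100 most abundant genes (-0.017), and the ratio of recovered fragments. With log2(FPKM + 1) H2-DMa fell from 0.61 to 0.29, below H2-Ab1 at 0.31. Their median lay between 0.24, without H2-DMb1, and 0.33, as a mean.

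Counts moved with the thresholds. Class II genes past the fold numbered 1, and 2 with no filter (H2-DMa added), and 0 each with log2(FPKM + 1), with an FPKM of at least 5, and with a difference of at least 1. Those with a counting interval above 0 numbered 2, and 1 each with an FPKM of at least 5 (Cd74) and a 99% interval (H2-DMb1). Over all genes, 485 were higher and 162 lower, and the counts were 263 and 95 with log2(FPKM + 1), 1324 and 681 with no filter, 186 and 56 with an FPKM of at least 5, and 89 and 42 with a difference of at least 1. Of 53 list medians under alternatives, 2 changed sign, both within the range of their list: the dendritic cell list, to 0.09 with no filter, and the co-stimulators, to -0.005 with no filter.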
